A study of Mus musculus with 8 samples.

Results

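Peroxiredoxins are thiol enzymes that reduce hydrogen peroxide and organic peroxides, and sulfiredoxin repairs the typical members of the family once peroxide has over-oxidised their catalytic cysteine. The family is spread over the cell: Prdx1 and Prdx2 act mainly in the cytosol, Prdx3 in mitochondria, Prdx5 in mitochondria, peroxisomes and cytosol, Prdx6 in the cytosol, and Prdx4 in the endoplasmic reticulum (ER), from which it can also be secreted. In the ER Prdx4 uses the peroxide formed during disulfide formation to oxidise protein disulfide isomerases, a route of particular interest in islets, whose beta cells fold large amounts of disulfide-bonded proinsulin and have low levels of catalase.

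The family was taken by gene symbol, as the 6 peroxiredoxin genes Prdx1 to Prdx6 and the sulfiredoxin gene Srxn1, 7 of the 35596 genes in the deposited table. All 7 were above 0 in every library and averaged above 1 TPM in both groups, where TPM is an abundance per transcript length relative to the total of the library, and they were therefore among the 8127 genes tested. Expression had been measured by sequencing of polyadenylated RNA from hand-picked pancreatic islets of male C57BL/6J mice, an inbred strain, freed with collagenase P. The 4 obese libraries came from mice given a diet with 10% fat for 9 weeks and then a diet with 60% fat for 18 weeks, and the 4 weight-cycled libraries from mice given 60% fat, 10% fat and again 60% fat, in periods of 9 weeks each. The age of the mice, a group kept on the 10% diet, and whether each library came from its own animal are not stated in the labels, so the p-values below rest on library-to-library spread, part of which may be technical.

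Being scaled by length, TPM levels can be set side by side between genes. TPM keeps no record of sequencing depth, which is therefore unknown, and counting error cannot be stated. Weight-cycled replicate 1 stood apart from its group: on the first principal component, which held 66.8% of the variance, it scored −7.98, among the obese libraries (−23.3 to −5.03) and away from the other weight-cycled libraries (13.8 to 30.6). Beta-cell markers (8 genes) summed to 789616 to 803454 TPM in obese libraries and 784923 to 812606 in weight-cycled libraries. These islets were thus dominated by beta-cell transcripts. By the test described below 5 of the 8 were lower, against 23.9% of all tested genes. Summed alpha-cell markers ran from 4527 to 12271 TPM in obese against 3015 to 8467 TPM in weight-cycled libraries (1 of 5 tested higher), delta-cell markers from 2876 to 4581 against 2362 to 3860 (0 of 3 called) and PP-cell markers from 5008 to 12523 against 5601 to 11104 (0 of 2). Among cells outside the islet, acinar markers ran from 3026 to 5648 against 3931 to 8931 TPM, highest in weight-cycled replicate 1 (0 of 15 called, Ptf1a under 0.1 TPM), and duct markers from 84.8 to 105.1 against 81.2 to 105.4 (1 of 4 lower, Sox9 and Cftr under 0.1 TPM). Endothelial markers ran from 51.2 to 84.0 against 28.3 to 58.6 TPM (2 of 7 lower). Macrophage markers, at 55.6 to 71.0 against 43.2 to 53.8 TPM (3 of 6 lower), and plasma- and B-cell markers, at 1.80 to 2.97 against 1.24 to 1.55 TPM (1 of 1 lower, Ms4a1 under 0.1 TPM), were lower in every weight-cycled library than in every obese one. Stellate and fibroblast markers ran from 1.94 to 2.83 against 1.27 to 2.77 TPM, with Pdgfra under 0.1 TPM, and none of the 7 reached the level for testing. Beside these counts, 1.21% of all tested genes were called higher and 23.9% lower. Single genes lower in every weight-cycled than in every obese library made up 21.1%. After median-of-ratios scaling and length correction, described below, lower calls made up 0.295% and 1.61%. The part of the marker shifts in the results on the family was not tested.

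Prdx4 was the member called higher, and Prdx1 was the most abundant member. Srxn1 was called lower in TPM as deposited, like 23.9% of all tested genes, but after neither rescaling described below. The promoters of Prdx4, Srxn1 and Prdx1 are shown because their short motifs differ. Each is the 250 bases before the transcription start in RefSeq, build GRCm38.p6, read 5′ to 3′ on the gene's strand: chrX:155338461-155338710 (minus strand) for Prdx4, chr2:152105274-152105523 (plus strand) for Srxn1 and chr4:116685349-116685598 (plus strand) for Prdx1. Capitals mark TGANTCA and its longer form TGANTCAGC, the core of the antioxidant response element, in Srxn1 and Prdx1, and the palindrome CACGTG, an E-box, in Prdx4.
Prdx4: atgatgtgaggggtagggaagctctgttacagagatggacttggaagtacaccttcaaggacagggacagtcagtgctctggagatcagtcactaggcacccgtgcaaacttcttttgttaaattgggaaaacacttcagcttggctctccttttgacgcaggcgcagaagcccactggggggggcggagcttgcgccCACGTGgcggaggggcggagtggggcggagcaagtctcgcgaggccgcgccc
Srxn1: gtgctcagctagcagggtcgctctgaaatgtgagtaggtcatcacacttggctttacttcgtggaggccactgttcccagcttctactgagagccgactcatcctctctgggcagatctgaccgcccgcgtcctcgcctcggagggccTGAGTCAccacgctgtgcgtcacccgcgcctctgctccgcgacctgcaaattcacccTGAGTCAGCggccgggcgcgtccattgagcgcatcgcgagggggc
Prdx1: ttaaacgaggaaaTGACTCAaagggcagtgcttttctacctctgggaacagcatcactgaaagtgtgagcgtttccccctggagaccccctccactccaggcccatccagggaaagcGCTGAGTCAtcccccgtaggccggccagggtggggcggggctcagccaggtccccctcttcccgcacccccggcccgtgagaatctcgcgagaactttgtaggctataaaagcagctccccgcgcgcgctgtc

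On both strands, TGANTCAGC was found 45 to 37 bases before the start of Srxn1 as TGAGTCAGC, and 133 to 125 bases before that of Prdx1, on the opposite strand, where the printed letters are GCTGAGTCA. This motif was present in 335 of 32817 mouse promoters of the same length (1.02%). The shorter TGANTCA, present in 6.75% of promoters, lies inside those matches and occurred once more in each promoter, 102 to 96 bases before the start of Srxn1 and 237 to 231 bases before that of Prdx1. CACGTG was found 52 to 47 bases before the start of Prdx4, and in 6.02% of all promoters. The ER-stress motifs TGACGTGG (0.564% of promoters) and CCAAT followed after 9 bases by CCACG (0.113%) were in none of the 6 promoters at hand, and the promoters of Prdx2, Prdx3 and Prdx5 held none of the motifs searched. The motifs were chosen after the sequences had been seen, and a match is a description of letters, not of binding. The RefSeq starts of Prdx4, Srxn1 and Prdx1 lie inside their gene spans in the GENCODE annotation, in which other transcripts start further upstream. The span of Prdx4 begins at 155340754, upstream of the whole printed window.

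Prdx4 was the member that rose in weight-cycled islets. Prdx4 (ENSMUSG00000025289.15, chrX:155323918-155340754, minus strand, GRCm38, 7 exons in its longest coding transcript) was at 16.3, 20.9, 19.5 and 20.2 TPM in obese replicates 1 to 4 and at 28.7, 43.6, 28.6 and 33.2 TPM in weight-cycled replicates 1 to 4. All weight-cycled libraries lay above all obese libraries, weight-cycled replicate 1 included. The group means were 19.2 ± 2.02 and 33.5 ± 7.04 TPM (SD, n = 4 each), a ratio of 1.74. On the log2(TPM + 1) scale, on which a fold change of a low gene is understated, the difference was 0.76 (SE 0.136, 95% interval 0.46 to 1.05), with an adjusted p of 0.0247 by limma with Benjamini-Hochberg adjustment over all tested genes. The median change of all tested genes was −0.26, so Prdx4 lay 1.01 above it, and its change was the 28th highest of the 8127. In RNA of whole islets, a different share of cells of a type and a different amount of RNA per cell cannot be told apart.

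Prdx4 was the 1 member of 7 called higher, against 98 of all tested genes (1.21%). The call was lost when any of 4 libraries was left out: the adjusted p by limma was 0.108 without obese replicate 1, 0.0501 without obese replicate 2, 0.0615 without obese replicate 3 and 0.0733 without weight-cycled replicate 4, while the change stayed between 0.63 and 0.82 over the 8 omissions. Without obese replicate 1, no gene of the table was called, although 2670 had an unadjusted p under 0.05. Without weight-cycled replicate 1, the change of Prdx4 was 0.82 (limma adjusted p = 0.000905), with 3.35% of tested genes then called higher and 54.4% lower.

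**Figure D1:**
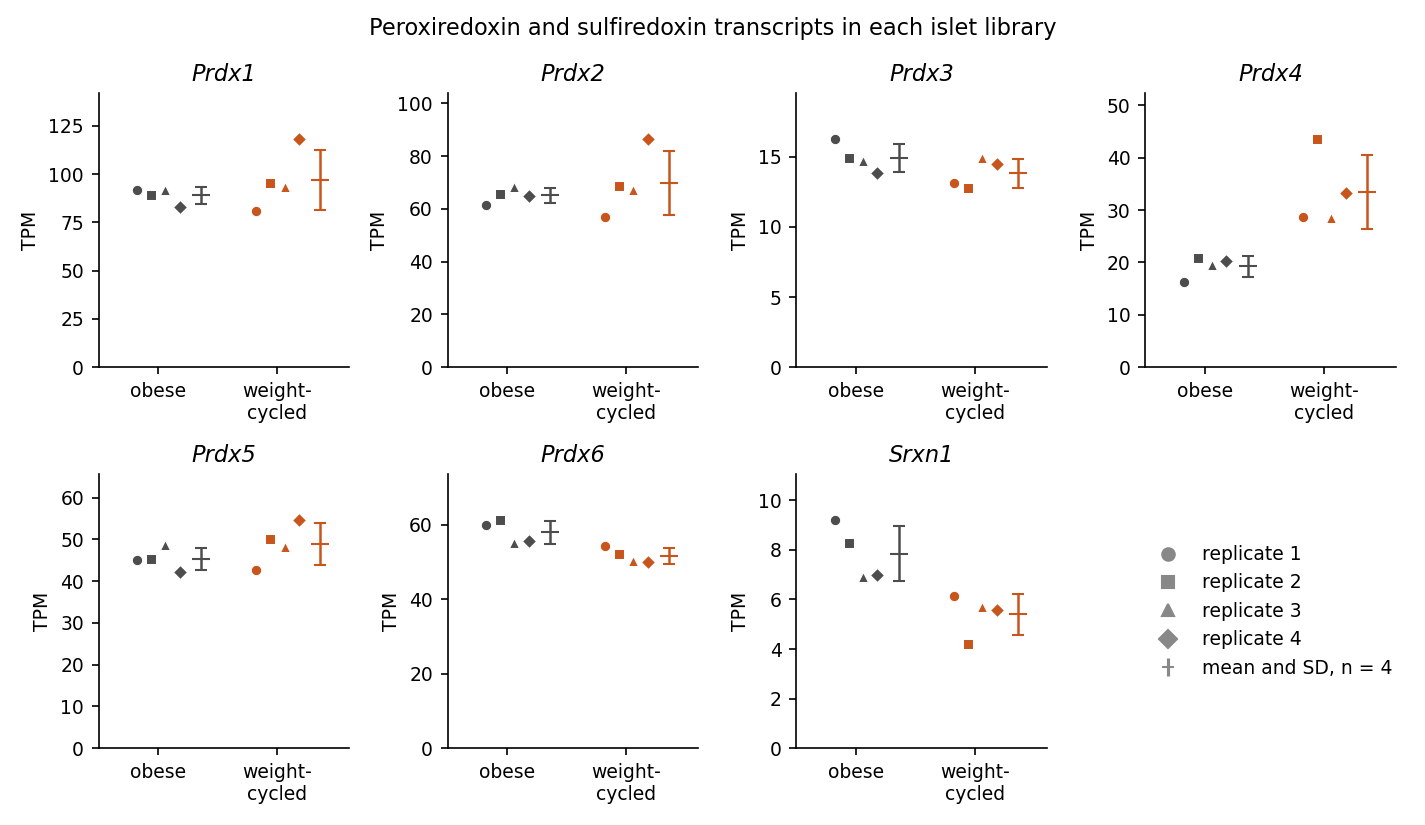
TPM of each member (vertical axes from 0, one panel per gene) in the 4 obese (grey) and 4 weight-cycled (orange) libraries, with symbols for the replicate number and bars for the mean and SD. Prdx4 is higher in every weight-cycled library (28.6 to 43.6 TPM) than in every obese one (16.3 to 20.9 TPM), Prdx6 and Srxn1 are lower in every weight-cycled library, and the groups overlap for Prdx1, Prdx2, Prdx3 and Prdx5.

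Srxn1, which encodes the repair enzyme of over-oxidised peroxiredoxins, was called lower in TPM as deposited. Srxn1 (ENSMUSG00000032802.8, chr2:152105516-152111376, plus strand, 2 exons) was at 9.20, 8.30, 6.91 and 7.0 TPM in obese libraries and at 6.14, 4.21, 5.69 and 5.58 TPM in weight-cycled libraries. All weight-cycled libraries lay below all obese ones, with means of 7.85 ± 1.10 and 5.40 ± 0.832 TPM (SD, n = 4 each). The change was −0.47 (SE 0.127, 95% interval −0.75 to −0.19, limma adjusted p = 0.0354), which was −0.21 relative to the median of all tested genes. Srxn1 was the 1 member of 7 called lower, against 23.9% of all tested genes, so that lower calls were no more frequent among the members than in the table as a whole. Its call was also lost under both rescalings described below, without each of 6 libraries in turn, and kept without weight-cycled replicate 1 (−0.52, limma adjusted p = 0.00428) and without obese replicate 4 (−0.51, limma adjusted p = 0.0429).

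The other 5 members did not pass the test. Prdx1 (ENSMUSG00000028691.12, chr4:116685544-116700822, plus strand, 6 exons), the most abundant, was at 92.0, 89.3, 92.0 and 82.9 TPM in obese libraries and at 81.0, 95.6, 93.4 and 118.2 TPM in weight-cycled libraries. Its groups overlapped, since the lowest and the highest value were both from weight-cycled libraries, and its change was 0.11 (95% interval −0.13 to 0.35, limma adjusted p = 0.421). Prdx2 (ENSMUSG00000005161.15, chr8:84969587-84974834, plus strand, 6 exons), its cytosolic relative, was at 61.7, 65.5, 68.3 and 65.0 TPM in obese libraries and at 57.1, 68.5, 67.1 and 86.5 TPM in weight-cycled libraries. The extremes again came from weight-cycled replicates 1 and 4, and the change was 0.08 (95% interval −0.17 to 0.34, limma adjusted p = 0.559), turning to −0.02 without weight-cycled replicate 4.

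Prdx3 (ENSMUSG00000024997.7, chr19:60864051-60874556, minus strand, 7 exons), the mitochondrial member, was at 16.3, 14.9, 14.7 and 13.9 TPM in obese libraries and at 13.1, 12.8, 14.9 and 14.5 TPM in weight-cycled libraries. These groups overlapped, with a change of −0.10 (95% interval −0.30 to 0.10, limma adjusted p = 0.363). Prdx5 (ENSMUSG00000024953.17, chr19:6906697-6910106, minus strand, 6 exons) was at 45.1, 45.3, 48.7 and 42.1 TPM in obese libraries and at 42.6, 50.0, 48.1 and 54.6 TPM in weight-cycled libraries. Obese replicate 3 lay above 2 weight-cycled libraries, and the change was 0.10 (95% interval −0.11 to 0.31, limma adjusted p = 0.390). Prdx6 (ENSMUSG00000026701.15, chr1:161240112-161251219, minus strand, 5 exons), which also has phospholipase activity and relies on glutathione rather than thioredoxin, was at 59.96, 61.2, 55.0 and 55.6 TPM in obese libraries and at 54.3, 52.1, 50.1 and 49.8 TPM in weight-cycled libraries. Its weight-cycled libraries all lay below its obese libraries, by as little as the step from 55.0 to 54.3 TPM, with a change of −0.16 (95% interval −0.34 to 0.01, limma adjusted p = 0.123). Of all tested genes, 1.30% were higher in every weight-cycled than in every obese library, as Prdx4 was, and 21.1% were lower, as Prdx6 and Srxn1 were.

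Near-identical copies bear on few of these values. Transcripts matching a member at 95% identity or more over at least 200 nt came from 2 processed pseudogenes of Prdx1 (Gm7204 and Gm21399, at most 0.683 TPM), 1 of Prdx2 (Tdpx-ps1, at most 0.026 TPM) and the Prdx5 neighbour Trmt112, and none matched Prdx3, Prdx4, Prdx6 or Srxn1. Prdx5 and Trmt112 overlap on opposite strands with 360 nt in common, Trmt112 stood at 14.2 to 21.1 TPM, and as the use of strand in the counting is not stated, reads of this overlap cannot be told apart. Prdx6b, an intronless copy of Prdx6, was listed at 0 in all libraries.

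Most tested genes had a lower TPM in weight-cycled islets, and longer transcripts more so: the median change was −0.14 in the 20% of genes with the shortest transcripts and −0.36 in the 20% with the longest. With each library rescaled by its median ratio to the gene means (median-of-ratios scaling), the median change of all tested genes moved from −0.26 to 0.03, and with each library's trend over transcript length removed (length correction) it was −0.01. Prdx4 remained the 1 member of 7 called higher on both scales, at 1.12 (95% interval 0.65 to 1.59, limma adjusted p = 0.0402) after median-of-ratios scaling and at 0.91 (95% interval 0.55 to 1.26, limma adjusted p = 0.0265) after length correction, where 0.972% and 1.93% of tested genes were called higher. No member was called lower on either scale, where 0.295% and 1.61% of tested genes were: Srxn1 was at −0.14 (limma adjusted p = 0.307) and −0.17 (limma adjusted p = 0.200). Prdx3 and Prdx6, below 0 in TPM as deposited, were above 0 on both scales, at 0.25 and 0.09 for Prdx3 and at 0.21 and 0.06 for Prdx6. Prdx1, Prdx2 and Prdx5 stood at 0.46 to 0.49 after median-of-ratios scaling and at 0.23 to 0.29 after length correction, without passing the test.

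Leaving out the library that stood apart added calls among the peroxiredoxins after either rescaling. In TPM as deposited 1 member, Prdx4, was called higher with and without it. With median-of-ratios scaling and without weight-cycled replicate 1, all 6 peroxiredoxins were called higher by limma, in a table in which 25.4% of genes were called higher and 11.5% lower. Prdx4 then changed by 1.29 (limma adjusted p = 0.00284), Prdx1, Prdx2 and Prdx5 by 0.64 to 0.68, Prdx3 by 0.38 and Prdx6 by 0.29, while Srxn1 was at −0.10 (limma adjusted p = 0.362). With the same scaling and without obese replicate 1, no gene was called by limma, while 1553 had an unadjusted p under 0.05, and Prdx4 was at 1.0 (limma adjusted p = 0.138).

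**Figure D2:**
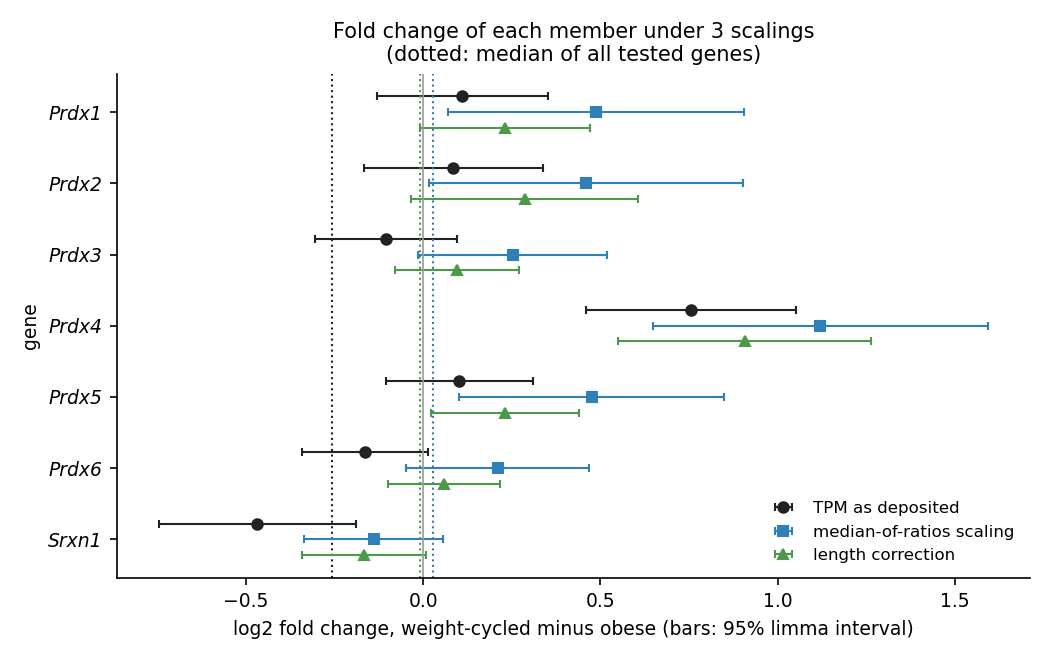
Log2 fold change, weight-cycled minus obese, of each member (points, with 95% limma intervals) in TPM as deposited (black), after median-of-ratios scaling (blue) and after length correction (green), with the median of all tested genes on each scale as a dotted line. Prdx4 lies at 0.76, 1.12 and 0.91, and on every scale its interval is above 0 and above the median.

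Ratios within a library do not depend on a scaling factor shared by all its genes. They set the ER member against the others directly, but can carry the trend with transcript length. Median coding transcript lengths ran from 661 nt for Prdx1 to 2812 nt for Srxn1, with Prdx4 at 962.5 nt. Over 11 alternatives the difference in the ratio to Srxn1 ran from 1.07 to 1.46, and that to Prdx6 from 0.82 to 1.04. The log2 ratio of Prdx4 to Prdx1 was −2.22 ± 0.204 in obese and −1.54 ± 0.305 in weight-cycled libraries (mean ± SD, n = 4 each), a difference of 0.67. The difference was 0.70 against Prdx2, 0.68 against Prdx5 and 0.90 against Prdx3. It was 0.95 against Prdx6, where the log2 ratio went from −1.60 ± 0.191 to −0.64 ± 0.293, a 1.94-fold higher ratio. In the ratio to mitochondrial Prdx3, Prdx4 went from near parity in obese replicate 1 (0.0068) and 0.41 to 0.54 in the other obese libraries to between 0.94 and 1.77 in weight-cycled libraries. The ratio to Srxn1 differed the most, by 1.33 on the log2 scale or 2.51-fold, from 0.83, 1.33, 1.5 and 1.53 in obese to 2.23, 3.37, 2.33 and 2.58 in weight-cycled libraries.

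In each of the 6 ratios, all 4 weight-cycled libraries lay above all 4 obese libraries, and the 2-sided exact permutation test over the 70 assignments of libraries gave p = 0.0286, the smallest p that 4 against 4 libraries allow, also after adjustment over the 6 ratios. The 6 ratios share their numerator and so are not 6 separate results. Ratios of other tested genes to the same denominators separated the groups upward for 0.935% of genes against Prdx1, 1.08% against Prdx5, 1.64% against Prdx2, 3.17% against Prdx3 and 4.23% against Prdx6, but for 22.2% against Srxn1, whose own fall enters the ratio. With a library left out the differences stayed between 0.54 and 0.77 against Prdx1 and between 0.56 and 0.80 against Prdx2. The groups remained apart, but with 3 against 4 libraries the exact permutation p was 0.0571 without obese replicate 1 or 3 for both of these ratios, and without obese replicate 4 for the ratio to Prdx2.

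**Figure D3:**
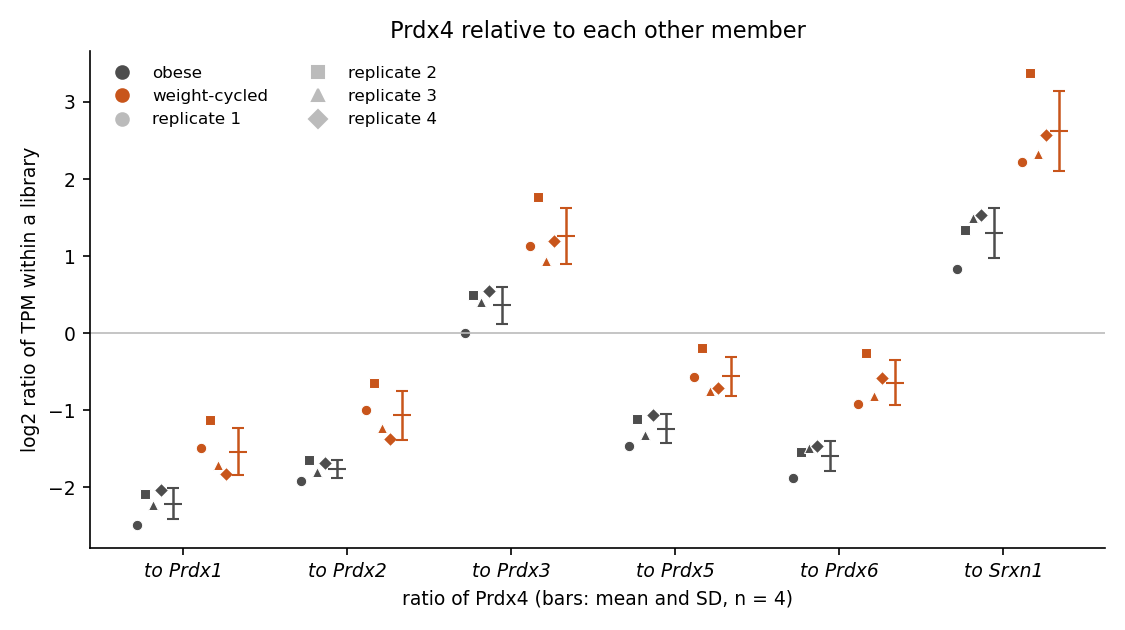
Log2 ratio of the TPM of Prdx4 to that of each other member (horizontal axis) within each obese (grey) and weight-cycled (orange) library, with bars for the mean and SD of 4 libraries. In every ratio the weight-cycled libraries lie above the obese ones, with mean differences from 0.67 (to Prdx1) to 1.33 (to Srxn1), and weight-cycled replicate 2 is the highest throughout.

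The order of the members was the same in both groups: Prdx1, Prdx2, Prdx6, Prdx5, Prdx4, Prdx3 and Srxn1. In obese islets the ranges of all neighbours in this order were apart. In weight-cycled islets the ranges of Prdx1 and Prdx2 overlapped (81.0 to 118.2 and 57.1 to 86.5 TPM), as did those of Prdx6 and Prdx5 (49.8 to 54.3 and 42.6 to 54.6 TPM, with Prdx6 above Prdx5 in 3 of 4 libraries) and those of Prdx5 and Prdx4 (42.6 to 54.6 and 28.6 to 43.6 TPM). The 6 peroxiredoxins summed to 292 ± 8.49 TPM in obese libraries and 315 ± 33.8 TPM in weight-cycled libraries, and to 272 ± 8.71 and 281 ± 31.4 TPM without Prdx4 (SD, n = 4 each). Prdx4 made up 5.61%, 7.04%, 6.54% and 7.22% of the sum in obese and 10.4%, 13.5%, 9.45% and 9.32% in weight-cycled libraries. The groups did not overlap in this share, which was 6.60% ± 0.723 in obese and 10.7% ± 1.95 in weight-cycled libraries. The share of Prdx6 was 19.9% ± 1.01 and 16.6% ± 2.33. Means were 30.5% and 30.7% for Prdx1, 22.3% and 22.1% for Prdx2, and 15.5% in both groups for Prdx5.

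Genes that act with peroxiredoxins were called in both directions in TPM as deposited, where lower calls were common in the whole table. Of 11 tested genes of the thioredoxin and glutaredoxin systems, which keep peroxiredoxins and other thiols reduced, 2 rose and 3 fell, against 1.21% and 23.9% of all tested genes, with a median change of −0.11 against −0.26. These counts ran from 0 to 2 and from 0 to 3 when 1 library was left out. Over all 23 alternatives they ran from 0 to 7 and from 0 to 3, against 0 to 2047 and 0 to 4499 of all tested genes. Txnip, an inhibitor of thioredoxin that glucose induces in beta cells, went from 42.7 to 72.7 TPM in obese to 106 to 165 TPM in weight-cycled libraries, a change of 1.12 (SE 0.185, limma adjusted p = 0.0184). Txn1, the cytosolic thioredoxin, rose by 0.28 (limma adjusted p = 0.0461), and both rises were also called after length correction, that of Txnip alone after median-of-ratios scaling. The call of Txnip was lost without obese replicate 1 and without weight-cycled replicates 2 or 4 (limma adjusted p = 0.0542 to 0.0763). The call of Txn1 was lost in 7 of the 8 omissions of 1 library, all but that of weight-cycled replicate 1 (limma adjusted p = 0.0713 to 0.120), with untrended variance (0.0547) and with the replicate number as a block (0.0588). Txnrd1, the cytosolic thioredoxin reductase, was called lower (−0.62), as were Glrx (−0.41) and Glrx5 (−0.29). None of these 3 falls was called on either other scale, each was lost in 6 or 7 of the 8 omissions, and Glrx5 turned to 0.07 after median-of-ratios scaling.

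Of 19 tested genes of ER oxidative folding, the pathway in which Prdx4 works, 1 rose and 2 fell, against 1.21% and 23.9% of all tested genes, with a median of −0.14. Without 1 library these counts ran from 0 to 3 and from 0 to 7. Over all 23 alternatives they ran from 0 to 10 and from 0 to 7, against 0 to 2047 and 0 to 4499 of all tested genes. Qsox1, a secretory-pathway sulfhydryl oxidase, which like Ero1 oxidases makes peroxide as it forms disulfides, went from 19.8 to 26.4 TPM to 29.5 to 35.3 TPM and rose by 0.54 (SE 0.111, limma adjusted p = 0.0303), and by 0.90 (limma adjusted p = 0.0167) after median-of-ratios scaling. Its groups did not overlap, but its call was lost in 5 of the 8 omissions, those of obese replicates 1 and 3 and of weight-cycled replicates 2, 3 and 4 (limma adjusted p = 0.0605 to 0.108). The transmembrane thioredoxin-like proteins Tmx3 (−0.40) and Tmx4 (−0.52) were called lower in TPM as deposited and on neither other scale, and their calls were lost in 7 and 6 of the 8 omissions. Erp29, an ER-resident folding factor, was at 0.27 (limma adjusted p = 0.0553) and Vkorc1l1, which reduces vitamin K epoxide, at −0.30 (limma adjusted p = 0.0576). The disulfide isomerases P4hb (0.23), Pdia6 (0.19), Pdia3 (−0.10), Pdia4 (−0.29), Pdia5 (−0.17) and Txndc5 (−0.20) were not called in TPM as deposited. After median-of-ratios scaling they were, in the same order, at 0.61, 0.57, 0.28, 0.073, 0.14 and 0.16, again without a call. The oxidases Ero1l and Ero1lb, at −0.29 and −0.28 in TPM as deposited and at 0.0098 and 0.094 after that scaling, were not called either. These 8 genes are outside the naming rule and were picked after their values were seen.

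Of 10 tested genes that remove superoxide and peroxide outside the family or make glutathione, none rose and 3 fell, against 1.21% and 23.9% of all tested genes, with a median of −0.06. Without 1 library 0 to 2 rose and 0 to 4 fell. Over all 23 alternatives 0 to 5 rose and 0 to 4 fell, against 0 to 2047 and 0 to 4499 of all tested genes. The falls were those of Sod2, the mitochondrial superoxide dismutase (−0.40), and of Gclm (−0.36) and Gclc (−0.38), the subunits of the first enzyme of glutathione synthesis, none was called on either other scale, and each call was lost in 6 or 7 of the 8 omissions. Gpx2, a glutathione peroxidase, was at 0.37 (limma adjusted p = 0.0743) and Gsr, glutathione reductase, at −0.40 (limma adjusted p = 0.0897). Of 12 tested genes of the NRF2 pathway, whose transcription factor binds the antioxidant response element and of which Srxn1 is a known target, none rose and 5 fell, against 1.21% and 23.9% of all tested genes, with a median of −0.33. The number that fell ran from 0 to 9 when 1 library was left out. Over all 23 alternatives 0 to 1 rose and 0 to 10 fell, against 0 to 2047 and 0 to 4499 of all tested genes. Gstm1, a glutathione transferase, was at 10.7 to 13.8 TPM in obese libraries and 3.17 to 7.45 TPM in weight-cycled libraries and fell by 1.22 (SE 0.199, limma adjusted p = 0.0168), and it was also the 1 gene of the list called lower on each of the other scales. Its call was lost without obese replicate 1 and without weight-cycled replicate 4 (limma adjusted p = 0.0875 and 0.0585). Nfe2l2, which encodes NRF2, was at −0.52, G6pdx at −0.36, Sqstm1 at −0.37 and Taldo1 at −0.27, all called in TPM as deposited and on neither other scale, and lost in 6 or 7 of the 8 omissions, with Sqstm1 and Taldo1 at 0.0082 and 0.10 after median-of-ratios scaling. Catalase (Cat) had a mean of 0.394 TPM and was not tested, like Txnrd3, Gpx7, Gpx8, Sod3, Slc7a11 and Gsta4.

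**Figure D4:**
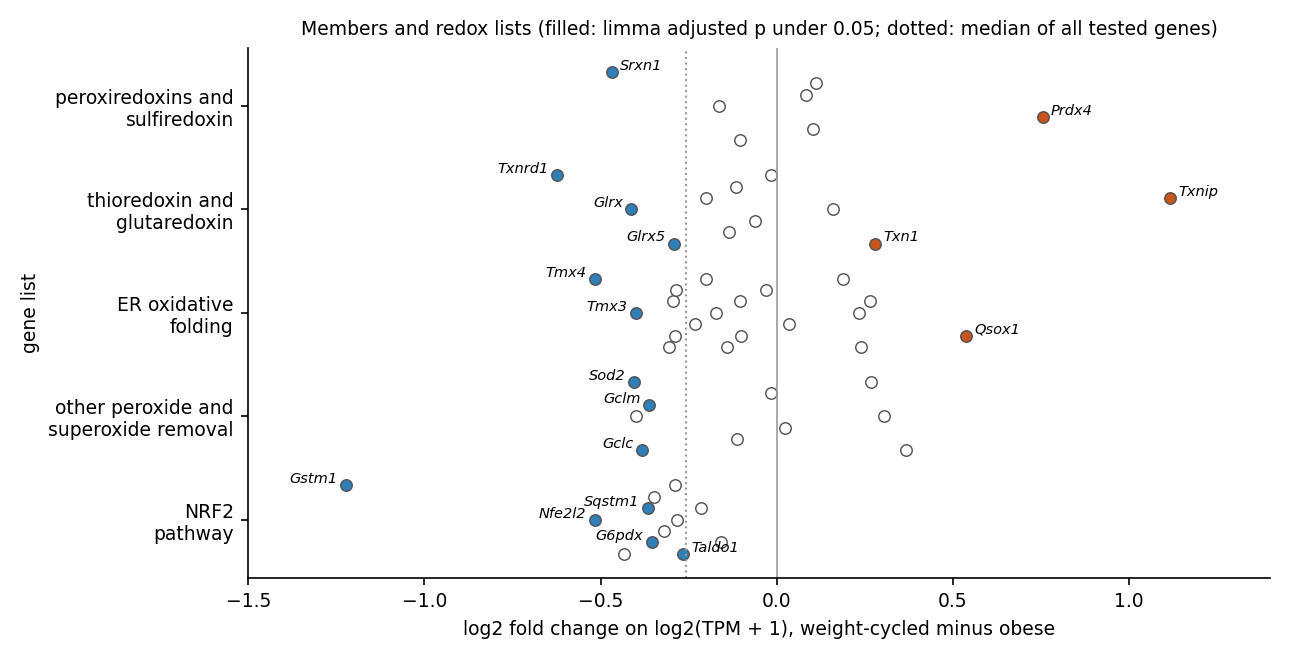
Log2 fold change in TPM as deposited, weight-cycled minus obese, of the members (top) and of the tested genes of 4 redox lists; filled points have a limma adjusted p under 0.05 and are named, and the dotted line is the median of all tested genes. Prdx4 (0.76), Txnip (1.12), Qsox1 (0.54) and Txn1 (0.28) are the filled points above 0, and Gstm1 (−1.22) is the lowest.

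The genes whose levels followed those of Prdx4 most closely were ranked by Pearson's r of log2(TPM + 1) over the 8 libraries, among 2031 genes with a mean of at least 10 TPM. Highest were Sdf4, a calcium-binding protein of the Golgi (r = 0.97), Ssr4, a subunit of the translocon-associated complex of the ER (0.96), Ggh, a lysosomal hydrolase of folate (0.95), Scg5, the secretogranin that chaperones a prohormone convertase (0.95), and Creld2, an ER protein (0.94). All 5 were higher in every weight-cycled than in every obese library. The ranking itself favours this, because Prdx4 separated the groups. The group differences and calls of these genes are therefore not separate results. After subtraction of the group means their r with Prdx4 was 0.71 to 0.85, and after median-of-ratios scaling it was 0.97 to 0.99. Ssr4 was at 389 to 498 TPM in obese libraries and 659 to 1015 TPM in weight-cycled libraries, a change of 0.93 (limma adjusted p = 0.0165), and Creld2 at 35.8 to 46.4 and 50.4 to 90.3 TPM, a change of 0.73 (limma adjusted p = 0.0317). These calls were lost in 2 of 8 omissions for Ssr4 (obese replicate 1 and weight-cycled replicate 4) and in 5 of 8 for Creld2 (obese replicates 1, 2 and 3 and weight-cycled replicates 2 and 4). Sdf4, Ggh and Scg5 changed by 0.34, 0.35 and 0.41 (limma adjusted p = 0.0345, 0.0366 and 0.0322), calls that were lost in 6, 7 and 6 of 8 omissions. After median-of-ratios scaling Sdf4, Ggh and Scg5 were not called (limma adjusted p = 0.0601, 0.0583 and 0.0585), while Ssr4 and Creld2 were (0.0394 and 0.0491). The lowest r belonged to Dynlrb1 (−0.99), a dynein light chain, Tmem106c (−0.99), a transmembrane protein, and Ufd1 (−0.99), a cofactor of protein extraction from the ER. On the other scales (median-of-ratios, then length correction) Dynlrb1 was at r = 0.49 and −0.90, Tmem106c at 0.61 and −0.83, and Ufd1 at 0.85 and 0.71. All of these values describe the same 8 libraries, which share their scaling factors and the split into groups.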

How the data were processed

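The values were TPM per gene in islets of 4 obese and 4 weight-cycled libraries, which the authors obtained using Salmon 1.5.2 and mm10, per the submitters' processing notes, with annotation and gene summing not given in the sources used here. TPM totals were 999930 to 999949, so TPM of one gene depends on all others. Members, gene lists and most alternatives were chosen with earlier results of these data known.

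The test was limma 3.58.1 (R 4.3.3, mean-variance trend), for genes averaging 1 TPM or more, on log2(TPM + 1), 2-sided, without covariates, with Benjamini-Hochberg adjustment over 8127 genes at 0.05, and the fit was tested on simulated data. Log2 ratios used TPM with no pseudocount and an exact permutation test. Named were all members, the 5 genes of each of the 4 redox lists with the smallest p, the 5 genes most and the 3 least correlated with Prdx4 (predicted genes left out) and islet hormone and acinar genes. Cell types were checked by 10 marker lists. Lengths (medians over coding transcripts), coordinates and copies (blastn 2.17.0) were taken from GENCODE M21 (GRCm38, which mm10 denotes). Length correction used a loess of span 0.5 per library. Promoters came from RefSeq, with entries for 6 of 7 members. Alternatives varied the pseudocount (0.1, 5), the filter (none, mean TPM 5), the scaling (median-of-ratios, quantile, length correction), the variance (untrended, array weights), a block on the replicate number, and the libraries (each left out).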

Additional observations from a re-analysis of the deposited data

Results flagged for a closer look

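Scg5, a gene named for its likeness to Prdx4, had 1 library far from the others of its group: obese replicate 2 was at 560.01 TPM, against 473 to 487 TPM in the other obese libraries, a gap beyond Dixon's 95% critical value for 4 samples. It was the only one of 82 groups of 4 libraries examined, over the members, the named genes and the ratios of Prdx4, where chance alone gives about 4.1.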

How the results depend on the processing

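Prdx4 was higher in weight-cycled islets under all 23 alternatives (0.59 to 1.29) and Srxn1 lower (−0.53 to −0.10). The call of Prdx4 was lost without a filter on low values (0.76, limma adjusted p = 0.0912, with 0 of 19482 genes called and 5686 at an unadjusted p under 0.05), without obese replicate 1 after median-of-ratios scaling (1.0) or length correction (0.81), and in 4 of the 8 omissions of 1 library (range 0.63 to 0.82). Over those omissions 0 to 1 members were called higher and 0 to 1 lower, as were 0 to 270 and 0 to 4390 tested genes; the ratio of Prdx4 ranged from 0.54 to 0.77 to Prdx1 and from 0.56 to 0.80 to Prdx2, and Prdx2 itself from −0.022 to 0.17. The cause of these changes, the smaller number of libraries included, was not tested.

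Of all tested genes, higher and lower calls were 98 and 1946 in TPM as deposited, 79 and 24 after median-of-ratios scaling, 173 and 124 after quantile scaling, 157 and 131 after length correction, 296 and 4499 with array weights, 0 and 0 without a filter, and 1001 were lower at a mean TPM of at least 5. Median-of-ratios scaling gave 2047 and 926 without weight-cycled replicate 1 and 0 and 0 without obese replicate 1. Length correction with those omissions, 2 alternatives chosen after the data were seen, gave 1038 and 1082, and 0 and 0 (1570 at an unadjusted p under 0.05). Members called higher were 6 and 4 without weight-cycled replicate 1 after these rescalings and 0 without obese replicate 1; members called lower were 2 (Prdx6 and Srxn1) with array weights and 0 without a filter and after every rescaling.

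Same-numbered deviations correlated at 0.21, −0.28, −0.05 and 0.23, and differently numbered ones at −0.34 to 0.31. These correlations gave no clear sign of pairing, which so few values cannot exclude. The replicate block added calls: 149 genes were higher and 2754 lower, against 98 and 1946 without it. After median-of-ratios scaling the block gave 572 and 99, against 79 and 24 without it. The reason for the added calls was not tested. Prdx4 was called with the block on both scales (limma adjusted p = 0.00678 and 0.0119). With the block on TPM as deposited the calls of Txn1, Glrx5 and Taldo1 were lost (limma adjusted p = 0.0588, 0.0504 and 0.0650).

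Genes below 0 in TPM as deposited that came out above 0 were as follows. After median-of-ratios scaling, with and without the block, Prdx3 at 0.25, Prdx6 at 0.21, Glrx5 at 0.075, Vkorc1l1 at 0.0077, Sqstm1 at 0.0082, Taldo1 at 0.10, Dynlrb1 at 0.058, Tmem106c at 0.080 and Ufd1 at 0.20. After quantile scaling, Prdx3 at 0.093 and Ufd1 at 0.073. After length correction, Prdx3 at 0.095, Prdx6 at 0.059, Vkorc1l1 at 0.011 and Ufd1 at 0.10. After median-of-ratios scaling without weight-cycled replicate 1, Prdx3 at 0.38, Prdx6 at 0.29, Glrx at 0.022, Glrx5 at 0.22, Vkorc1l1 at 0.034, Sod2 at 0.014, Gclm at 0.021, Sqstm1 at 0.029, Taldo1 at 0.21, Dynlrb1 at 0.15, Tmem106c at 0.16 and Ufd1 at 0.28. After median-of-ratios scaling without obese replicate 1, Prdx3 at 0.25, Prdx6 at 0.18, Glrx5 at 0.018, Gclm at 0.011, Sqstm1 at 0.0059, Taldo1 at 0.10, Dynlrb1 at 0.040, Tmem106c at 0.059 and Ufd1 at 0.18. After length correction without weight-cycled replicate 1, Prdx3 at 0.16, Prdx6 at 0.086, Glrx5 at 0.052, Tmx3 at 0.010, Vkorc1l1 at 0.038 and Ufd1 at 0.15. After length correction without obese replicate 1, Prdx3 at 0.11, Prdx6 at 0.045 and Ufd1 at 0.089. For the 28 named genes outside the family, 638 values were computed, of which 320 kept direction and side of the threshold, 264 lost the call, 15 gained one and 39 changed sign. Depth is unknown, so no limit of detection is given.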

Other observations

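Prdx1, Prdx2 and Prdx5 varied together from library to library, and less closely with Prdx4. After subtraction of the group means, Pearson's r over the 8 libraries on log2(TPM + 1) was 0.93 between Prdx1 and Prdx2, 0.93 between Prdx1 and Prdx5 and 0.88 between Prdx2 and Prdx5, against 0.18, 0.33 and 0.33 between Prdx4 and these 3 genes. Weight-cycled replicate 4 was the highest and weight-cycled replicate 1 the lowest library of Prdx1 and of Prdx2, whereas Prdx4 was highest in weight-cycled replicate 2 (43.6 TPM). The coefficient of variation of Prdx1 was 4.81% in obese and 16.0% in weight-cycled libraries, and that of Prdx2 4.18% and 17.5%. Without that subtraction, r between Prdx4 and Prdx1, Prdx2 and Prdx5 was 0.40, 0.38 and 0.53 in TPM as deposited and 0.70, 0.73 and 0.82 after length correction, and among these 3 genes it was 0.88 to 0.94 and 0.93 to 0.95. Prdx4 and Srxn1 ran opposite to each other, with r of −0.95 over the 8 libraries, −0.83 after subtraction of the group means and −0.77 after length correction. These are descriptions over 8 libraries that share their scaling and the split into groups.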
